A study of Mus musculus with 24 samples.

Results

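Among Rev-erbα binding sites of mouse fat, 283 also lay under a peak of the brain list but had no Rev-erbα border in liver. They were chosen from the deposited lists: an epididymal white adipose tissue (eWAT) peak had to overlap a brain peak by at least 1 bp, and its centre had to lie over 100 bp from every border of the liver ChIP-exo list. This rule kept 283 of the 9016 eWAT peaks, or 3.14%, and 283 of the 706 eWAT peaks that overlapped a brain peak. They are called border-free shared sites here. The other 423 shared peaks, which had a border within 100 bp, are called bordered shared sites. The label of fat and brain sites without a liver border only restates the rule. The liver ChIP-seq libraries were not analysed here, and a site without a listed border was not tested for other signs of binding in liver.

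Rev-erbα, the product of Nr1d1, is a nuclear receptor that binds heme and represses transcription by recruiting the NCoR and HDAC3 corepressor complex. It binds a half-site, the core sequence recognised by many nuclear receptors, alone with an A/T-rich extension (the ROR response element or RORE, also bound by the activating ROR receptors) or as a direct repeat with short spacing (RevDR2). It is part of the circadian clock, where it represses Bmal1 (Arntl) and other clock genes, and it can also be brought to DNA by other factors.

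The series concerns Rev-erbα binding in metabolic tissues and its link to the clock, and holds 24 samples in 16 groups, of which 3 groups (5 samples) were used. All 3 came from wild-type C57BL/6J mice at zeitgeber time 10 (10 h after lights on), with the same Rev-erbα antibody. They were ChIP-seq of eWAT (2 libraries), ChIP-seq of brain, from its ventral tegmental area (1 library), and ChIP-exo of liver (2 libraries), a ChIP in which exonucleases trim the bound DNA to a border beside the crosslink. The other 19 samples, inputs and mutants among them, were not analysed here. Each group had 1 deposited list, of 9016 eWAT peaks, 10687 brain peaks and 245360 liver borders, so no spread between replicates could be computed, read depth is unknown, and every comparison is between sets of sites and not between samples. Peak lists hold no expression, so the tissue labels could not be checked against marker genes.

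Sequences of the mm9 build at 9 border-free shared sites show the receptor's own elements. Each window holds 46 bases, 5′ to 3′ on the strand of the element, with the RORE or RevDR2 in capitals and its 3′ end aligned. The RORE of Tiam2 and the 6 RevDR2 elements are all those among the sites named by the rule given under the processing. The ROREs nearest Plcg1 and Ntng2 were added after their values were seen, as the next best ranked. The Tiam2 RORE lies in an intron 18504 bp from a Tiam2 start, that of Plcg1 in an intron of the neighbouring Zhx3, and that of Ntng2 in its own intron.
Tiam2 RORE, chr17:3415661-3415706, plus strand: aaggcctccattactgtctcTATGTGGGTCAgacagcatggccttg
Plcg1 RORE, chr2:160622807-160622852, plus strand: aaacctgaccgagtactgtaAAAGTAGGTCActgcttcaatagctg
Ntng2 RORE, chr2:29073706-29073751, plus strand: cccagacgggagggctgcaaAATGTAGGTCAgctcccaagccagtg
Col15a1 RevDR2, chr4:47273601-47273646, minus strand: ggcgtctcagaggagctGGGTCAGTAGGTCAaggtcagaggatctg
L3mbtl1 RevDR2, chr2:162784157-162784202, plus strand: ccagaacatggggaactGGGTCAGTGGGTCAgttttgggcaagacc
Slc29a3 RevDR2, chr10:60250847-60250892, plus strand: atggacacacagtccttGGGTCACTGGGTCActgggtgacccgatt
Rfx4 RevDR2, chr10:84314814-84314859, plus strand: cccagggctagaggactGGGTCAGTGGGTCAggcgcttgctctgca
Sash1 RevDR2, chr10:8581882-8581927, minus strand: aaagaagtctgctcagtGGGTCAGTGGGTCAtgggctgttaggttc
Adamts2 RevDR2, chr11:50546847-50546892, plus strand: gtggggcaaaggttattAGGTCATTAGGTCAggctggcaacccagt

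The search defined a RevDR2 as 2 half-sites in the same orientation with 2 bases between them, so all 6 have that form. The sites of L3mbtl1, Rfx4 and Sash1 shared the spelling GGGTCAGTGGGTCA, the site of Slc29a3 had GGGTCACTGGGTCA and that of Col15a1 GGGTCAGTAGGTCA. The Adamts2 element alone began with A, as AGGTCATTAGGTCA. All 6 lay in introns. Of the 23 ROREs whose sequence was read, 13 ended in AGGTCA and 10 in GGGTCA, and the spelling found most often, AATGTAGGTCA, occurred at 4 sites.

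The 3 border-free shared sites with the best mean rank in the 2 tissues held none of these elements. Their whole 150 bp peaks are given below, with a half-site or an E-box (CACGTG, the element of BMAL1/CLOCK and related factors) in capitals. Abr held a half-site without the extension, Krt28 held neither motif, and Klf9 held an E-box.
Abr peak, chr11:76323960-76324109, plus strand: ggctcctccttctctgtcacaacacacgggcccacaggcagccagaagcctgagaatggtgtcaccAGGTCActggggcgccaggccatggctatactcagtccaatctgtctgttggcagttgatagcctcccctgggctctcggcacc
Krt28 peak, chr11:99231537-99231686, plus strand: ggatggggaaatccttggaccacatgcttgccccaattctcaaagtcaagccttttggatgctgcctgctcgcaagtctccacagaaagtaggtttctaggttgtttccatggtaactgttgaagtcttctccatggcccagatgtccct
Klf9 peak, chr19:23210275-23210424, plus strand: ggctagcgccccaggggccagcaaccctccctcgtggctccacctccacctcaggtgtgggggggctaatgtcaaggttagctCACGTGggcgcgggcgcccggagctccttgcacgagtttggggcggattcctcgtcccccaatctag

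Scores and ranks chose the sites only through the authors' lists, and they are given as a description. The score is the authors' own value for a peak, its unit is not defined in the sources used here, and it was compared only within a list, where rank 1 is the highest score and tied scores share the best rank. Border-free shared sites had a median eWAT score of 18.2 (range 10.1 to 100.3), bordered shared sites one of 36.5 (10.1 to 281.6), and all eWAT peaks one of 14.2. Their median brain score was 32.7 (18.2 to 218.2), against 43.6 at bordered shared sites and 25.5 over all brain peaks. Among the strongest eWAT peaks, border-free sites stood near the share of the whole list. A rank up to 100 was held by 3 border-free (1.06%) and 73 bordered sites (17.3%), against 1.11% of all eWAT peaks. In brain, 12 border-free (4.24%) and 50 bordered shared sites (11.8%) had a rank up to 100, against 0.983% of all brain peaks. In total 32 of the 283 border-free and 142 of the 423 bordered shared sites ranked within the first 1000 of both lists. Across the 283 sites the 2 ranks went together only loosely (Spearman's rank correlation 0.166 across sites, which all come from the same 2 lists).

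**Figure D1:**
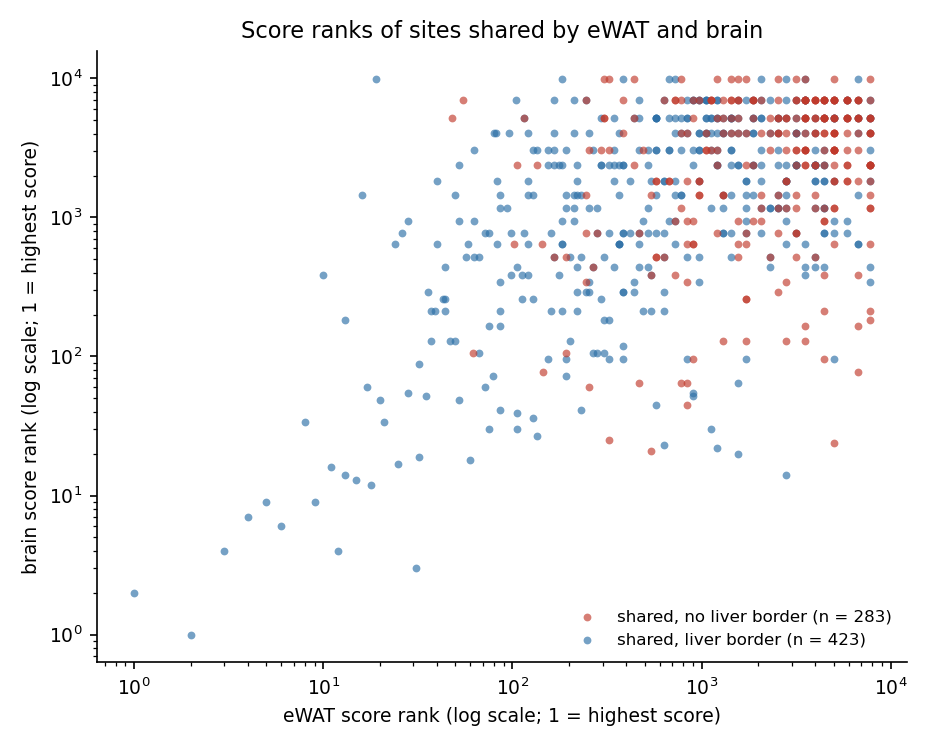
Score rank in eWAT (x axis) and in brain (y axis), both on log scales with rank 1 the highest score, for the 283 border-free and the 423 bordered shared sites. Each point is 1 site and tied scores share a rank. The corner of the best ranks in both lists holds bordered sites, and the border-free sites lie towards lower scores than the bordered ones.

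The rule asked for an overlap of the 2 peaks, and its length is given as a description. It had a median of 114 of the 150 bp (2 to 150), against 119 bp at bordered shared sites, 230 of the 283 sites overlapped by 75 bp or more, and the 2 centres were a median of 36 bp apart. Of 3 stretches of 31 bases looked up in each peak, all 283 had at least 1 that occurs once in the reference genome, as did all but 2 of the 423 bordered shared sites. In all, 266 different genes were nearest to the 283 sites, and 17 of these genes had 2 sites. Another border-free site lay within 10 kb of 2 sites and within 100 kb of 40. The share of eWAT peaks kept by the rule varied by chromosome. It ran from 0.274% on chromosome 16 (1 of 365) to 4.97% on chromosome 14 (17 of 342).

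The site with the best mean rank lay in an intron of Abr, which encodes a regulator of small GTPases (chr11:76323960-76324109, 1114 bp from a start). It scored 89.2 in eWAT (rank 62) and 109.1 in brain (rank 106), and its nearest liver border was 10501 bp away. The site in an intron of Krt28, a hair-follicle keratin gene, scored 65.9 in eWAT (rank 145) and 123.6 in brain (rank 77), with a border 9410 bp away. The Klf9 site lay 5366 bp from the start of that gene, a glucocorticoid-induced zinc-finger factor and output of the clock, in intergenic sequence (chr19:23210275-23210424). It scored 58.8 in eWAT (rank 192) and 109.1 in brain (rank 106), but a liver border with a signal of 9.19 stood 109 bp from its centre, just past the limit.

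Further sites among the best 25 were nearest genes of several kinds, some of them far from the start. At neuronal genes, the site in an intron of Shank2, a postsynaptic scaffold, had the best brain rank of all 283 (21, score 218.2) with an eWAT rank of 543 (score 38.5). The site nearest Tanc1, another postsynaptic scaffold, scored 53.7 in eWAT (rank 244) and 72.7 in brain (rank 344). The site 3454 bp from Camk2a, a synaptic kinase gene, scored 66.9 and 58.2. The 2 highest eWAT scores, in contrast, belonged to sites of low brain rank: L3mbtl1, a chromatin reader, scored 100.3 in eWAT (rank 48) and 25.5 in brain (rank 5169), and a site 33 bp from a start of Tead4, a factor of the Hippo pathway, scored 95.2 (rank 55) and 21.8 (rank 6985). The Tead4 site was named after its values were seen.

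At genes of signalling enzymes that act on small GTPases, the best 25 included the sites nearest Arhgef3 (47.6 in eWAT and 189.1 in brain), Tiam2 (32.4 and 152.7) and Cyth4 (37.5 and 61.8), whose products are exchange factors. At genes of immune cells they included those nearest Cd72, a B-cell receptor (52.7 and 134.5), and Nfam1, an immune receptor (32.4 and 130.9). The site in an intron of Ifi202b, an interferon-inducible gene, scored 31.4 and 112.7. At collagen and matrix genes they included Col5a1 (41.5 and 130.9), a site in Col4a1 nearest a Col4a2 start (51.7 and 65.4), Loxl4, a collagen crosslinking enzyme (58.8 and 61.8), Mmp15, a matrix protease (rank 102 in eWAT and 640 in brain), and Sparc, a matrix glycoprotein (34.4 and 69.1). These gene kinds were grouped after the sites were seen and were not tested. No share of these kinds over all eWAT peaks is given here. For several of these sites the nearest start was over 10 kb away: 71111 bp at Arhgef3, 63244 at Col5a1, 50913 at Cyth4, 45282 at Nfam1 and 40019 at Mmp15. The same held for Col4a2 (33372 bp), Shank2 (32458), Tiam2 (18504) and Tanc1 (16013). The rest of the best 25 were nearest Osgin1, Vdac3 (inside Slc20a2), Iffo2, 1700001O22Rik, Txndc2 (inside Rab31), Brd2 and Afap1l2, with 1 more in a dense region. The eWAT scores of these 7 ran from 32.4 at Afap1l2 to 61.8 at Osgin1.

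None of the 6 RevDR2 sites was among the best 25 by mean rank, although that of L3mbtl1 had the highest eWAT score of all 283. Col15a1, a collagen gene, had the best mean rank of the 6, with scores of 53.7 in eWAT (rank 244) and 43.6 in brain (rank 1451). Rfx4, an RFX factor gene, scored 53.7 (rank 244) and 21.8 (rank 6985). Slc29a3, a nucleoside transporter gene whose site lies in an intron of the netrin receptor gene Unc5b, scored 26.3 and 25.5. The sites in Sash1, a scaffold gene, and Adamts2, a procollagen protease gene, both scored 10.1 in eWAT, the lowest score of the list, and 36.4 in brain. The Tiam2 RORE site, by contrast, ranked 45 in brain. The median eWAT score of the 30 sites with a RORE or RevDR2 was 22.8, against 17.2 for the 253 without, and both had a median brain score of 32.7.

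Border-free shared sites lay mostly away from promoters, as did eWAT peaks in general, and were less often near one than bordered shared sites. Of the 283, 22 (7.77%, 95% Wilson interval 5.19 to 11.5) had their centre within 1 kb of a protein-coding transcription start, against 128 of 423 bordered shared sites (30.3%, 26.1 to 34.8) and 8.76% of all eWAT peaks. The other border-free sites were in introns (142, 50.2%), between genes (112, 39.6%) or in exons (7, 2.47%). Of all eWAT peaks, 44.1% were in introns, 44.2% between genes and 2.97% in exons. The difference of -22.5 percentage points from bordered shared sites passed Fisher's exact test, two-sided (odds ratio 0.194, adjusted exact p = 2.24e-12). It was also lower than the 24.1% of the 6506 brain peaks with neither an eWAT overlap nor a border, called brain-only sites (adjusted exact p = 5.55e-11). Against the 6030 eWAT peaks with neither a brain overlap nor a border, called eWAT-only sites, of which 5.95% were near a start, no difference passed (adjusted exact p = 0.491, interval of the difference -0.839 to 5.58 points). All p-values here are adjusted by the Benjamini-Hochberg method over 87 tests, and since neighbouring sites are not independent they are too small by an unknown amount.

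The comparison with bordered shared sites depended on which borders were counted. With only borders of p up to 0.01, the border-free class grew to 592 sites and its promoter share was 22.8%, against 13.2% of the 114 sites that kept a border (adjusted exact p = 0.0944), while the difference from eWAT-only sites (7.45%) then passed (adjusted exact p = 8.27e-27). In the deposited list a low p did not go with a high signal: the 79990 borders with p up to 0.01 had a median signal of 0.418, against 0.497 for the other 165370. With only borders above the median signal, an alternative added after the data were seen, there were 343 border-free sites and the shares were 9.91% and 32.0% (adjusted exact p = 5.32e-12).

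**Figure D2:**
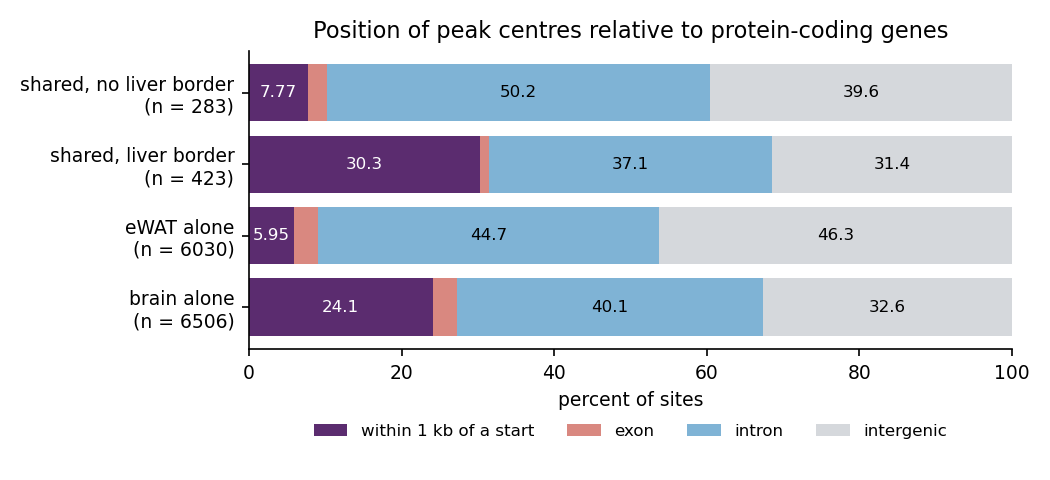
Percent of sites (x axis) by the position of the peak centre, for border-free shared sites, bordered shared sites, eWAT-only and brain-only sites (rows, with n). Colours give centres within 1 kb of a transcription start, in exons, in introns and between genes; 7.77% of border-free and 30.3% of bordered shared sites were near a start.

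The median distance from the centre to a transcription start was 17892 bp at border-free shared sites, against 7257 bp at bordered shared sites, 22541.5 bp at eWAT-only and 11364.5 bp at brain-only sites. In all, 185 of the 283 (65.4%) were over 10 kb away, against 197 of 423 bordered sites (46.6%). The border-free share was near the 65.0% of all eWAT peaks and the 68.2% of eWAT-only sites. The 22 border-free sites near a start, named after their positions were seen, included those of Loxl4 and Sparc, Brd2 (a bromodomain protein), Entpd2 (an ectonucleotidase), Acot1 (an acyl-CoA thioesterase) and Ppargc1b (a coactivator of oxidative metabolism).

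No border-free shared site had a core clock gene nearest within 10 kb. A count of 0 of 283 allows a share of up to 1.06%. Among bordered shared sites there were 24 (5.67%), at 14 genes that included Per1, Per2, Cry2, Dbp, Nr1d1 and Nr1d2. Among all eWAT peaks the share was 0.433%, below the limit of 1.06%, so the count of 0 is near the share of the whole list. The nearest approaches of a border-free site to a listed clock gene were 15429 bp from Nr1d1, 56586 bp from Npas2 and 70005 bp from Rora. This gene list, like the other 14, was drawn up with earlier results of these data known, and the counts are given without a test.

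Counts at the other listed genes were small. Of 14 clock output genes only Klf9, and of 24 neuronal genes only Camk2a, had a border-free site nearest within 10 kb, and 1 of 26 nuclear receptor genes had 2, in a dense region. None of the 27 adipocyte genes, 30 lipid and glucose genes, 18 dopamine-neuron genes or 20 hepatocyte genes had one, nor did any gene of the lists of corepressor subunits (6 genes), heme enzymes (10), glia (18), skeletal muscle (13), stroma and immune cells (16), immediate early genes (14) or housekeeping genes (12). For the adipocyte, lipid, dopamine-neuron and hepatocyte lists, the closest gene to such a site was Scd1, which encodes a fatty acid desaturase, at 34563 bp. With any start within 10 kb counted, nearest or not, the numbers of listed genes were the same. By that measure 124 of all 22350 protein-coding genes (0.555%) had a border-free site. In lists this short a count of 0 is near that share, and 1 gene is already above it. Bordered shared sites also had 0 at the dopamine-neuron, glia, hepatocyte, skeletal muscle, stroma and immune, immediate early and housekeeping lists. Counted in sites, there was 1 each at the corepressor, heme, nuclear receptor, lipid and glucose, and neuronal lists. There were 2 at the adipocyte list and 7, at 6 genes, at the clock output list.

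The half-site was the motif most often present. The half-site (A or G followed by GGTCA) occurred within 50 bp of the eWAT centre, on either strand, at 103 of the 283 border-free shared sites (36.4%), against 22.1% of all eWAT peaks. In windows of the same width 1000 bp to each side it occurred in 9.89% of windows. Bordered shared sites held it at 29.8%, eWAT-only sites at 19.8% and brain-only sites at 14.3%. The share was higher than at eWAT-only sites (odds ratio 2.32, adjusted exact p = 3.87e-09) and brain-only sites (odds ratio 3.42, adjusted exact p = 3.26e-17) by Fisher's exact test. The difference of 6.61 points from bordered shared sites did not pass (adjusted exact p = 0.295, interval -0.428 to 13.7), and away from promoters the shares were 37.5% and 37.3%.

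The full elements were also more frequent than at eWAT-only and brain-only sites. A RORE or a RevDR2, each of which contains the half-site, lay at 30 border-free shared sites (10.6%; 24 RORE and 6 RevDR2, none with both), against 3.12% of all eWAT peaks and 0.353% of flanking windows. Bordered shared sites had 8.27%, eWAT-only sites 2.50% and brain-only sites 1.63%. The share was higher than at eWAT-only sites (odds ratio 4.62, adjusted exact p = 3.57e-09) and brain-only sites (odds ratio 7.16, adjusted exact p = 8.84e-13) by Fisher's exact test. From bordered shared sites it was 2.33 points away (adjusted exact p = 0.653, interval -1.98 to 7.04). The 2 elements differed in sign there: the RORE was at 8.48% of border-free and 5.67% of bordered sites (adjusted exact p = 0.435), and the RevDR2 at 2.12% and 3.78% (adjusted exact p = 0.562). All 30 lay over 1 kb from every start, where the shares were 11.5% of 261 border-free and 11.5% of 295 bordered sites. Among peaks above the median score of their lists the difference from eWAT-only sites no longer passed (8.06% and 3.97%, adjusted exact p = 0.178).

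**Figure D3:**
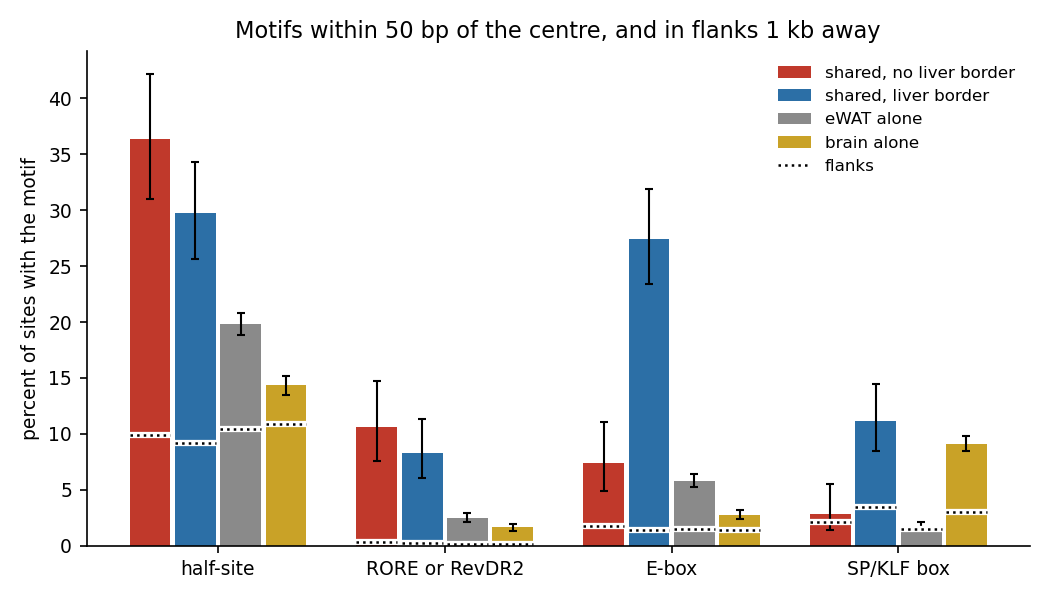
Percent of sites (y axis) with each motif within 50 bp of the peak centre, for border-free shared, bordered shared, eWAT-only and brain-only sites. Bars are shares with 95% Wilson intervals and dotted lines the share in windows 1000 bp to each side; at border-free and bordered shared sites the half-site stands at 36.4% and 29.8%, with overlapping intervals, and the E-box at 7.42% and 27.4%, with intervals apart.

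The bases before the half-site differed in share from those in the flanks. Of 124 half-sites found near the centres of border-free shared sites, 71.0% had a T directly before them, against 62.4% of 189 at bordered shared sites, 44.8% of 1278 at eWAT-only sites and 25.5% of 51 in the flanks of border-free sites. An A stood 3 bases before in 57.3%, against 58.7% at bordered shared sites, 38.1% at eWAT-only sites and 33.3% in the flanks. It stood 4 bases before in 50.0%, against 37.0%, 39.0% and 35.3%. The T directly before and the A 3 bases before also occur in the RevDR2 elements shown, so they do not single out the RORE. The half-site began with G in 58.9%, against 48.1% at bordered shared and 41.0% at eWAT-only sites and 37.3% in the flanks. By site, GGGTCA occurred at 65 border-free sites (23.0%) and 15.1% of bordered ones, and AGGTCA at 48 (17.0%) and 19.1%. These spellings were compared after the data were seen and have no test. At the 103 sites with a half-site, the nearest one lay a median of 18.5 bp from the eWAT centre and 38.5 bp from the brain centre; the search was centred on the eWAT peak.

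The E-box set the 2 kinds of shared site apart. It lay within 50 bp of the centre at 21 border-free shared sites (7.42%), against 116 of 423 bordered shared sites (27.4%) and 9.06% of all eWAT peaks. The difference of -20.0 points passed Fisher's exact test (odds ratio 0.212, adjusted exact p = 1.39e-10), and it remained among sites over 1 kb from every start, at 7.28% and 21.4% (adjusted exact p = 2.74e-05). The share was higher than the 2.74% of brain-only sites (odds ratio 2.85, adjusted exact p = 4.34e-04), and from the 5.80% of eWAT-only sites it did not differ past the threshold (adjusted exact p = 0.520, interval of the difference -0.975 to 5.32 points). Among peaks above the median score of their lists the difference from brain-only sites did not pass (7.26% and 3.29%, adjusted exact p = 0.178). With only borders of p up to 0.01 the 2 kinds of shared site had 19.6% and 18.4% (adjusted exact p = 1), and the difference from the 7.51% of eWAT-only sites passed (adjusted exact p = 6.16e-18). With only borders above the median signal the E-box was at 24 of 343 and 113 of 363 sites (adjusted exact p = 1.77e-15). Among the best 25 border-free sites, the E-box was found at Klf9, Camk2a and Cyth4. Only 1 border-free site, nearest Inpp4b and named for this after it was seen, held both a half-site and an E-box, against 19 bordered ones. The share of all eWAT peaks with both is not given here. Neither motif was held by 160 border-free sites (56.5%), against 47.3% of bordered ones. Of all eWAT peaks, 22.1% held a half-site and 9.06% an E-box, so a larger share of the whole list held neither.

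**Figure D4:**
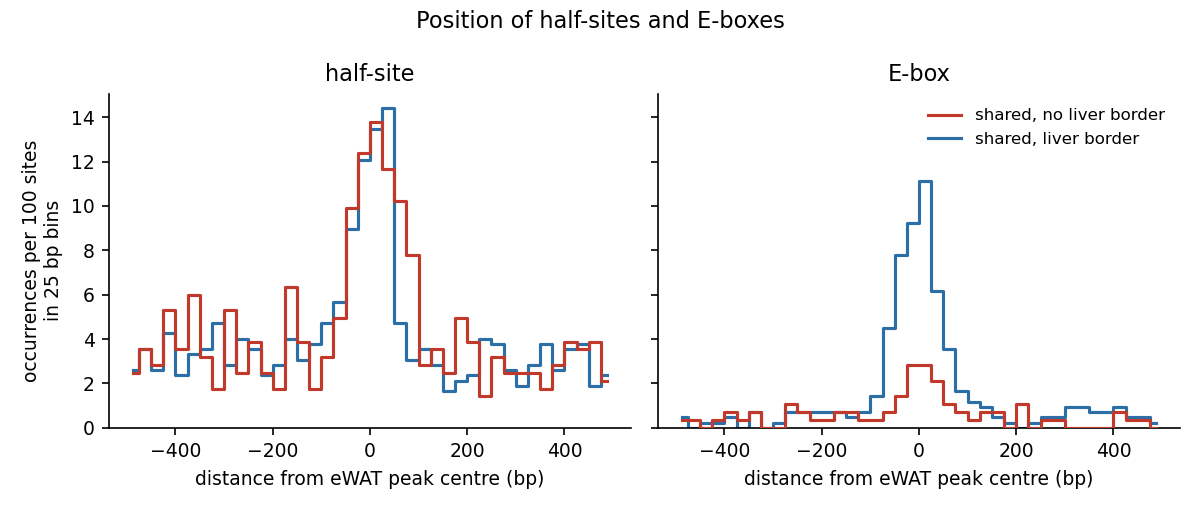
Occurrences per 100 sites in 25 bp bins (y axis) by distance from the eWAT peak centre (x axis) of the half-site (left) and the E-box (right), at border-free and bordered shared sites. Half-sites gather near the centre at both kinds of site (13.8 and 13.5 in the bin that starts at 0), and the E-box is rarer there at border-free sites (2.83 and 11.1 in the same bin).

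Among the other 22 motifs searched, SP/KLF boxes (GGGCGG, typical of CpG-rich promoters) were found at 8 border-free shared sites (2.83%), against 11.1% of bordered shared sites (odds ratio 0.233, adjusted exact p = 2.79e-04) and 9.10% of brain-only sites (odds ratio 0.291, adjusted exact p = 3.83e-04), by Fisher's exact test. Away from promoters the shares were 2.68% and 4.41% and the difference from bordered sites did not pass (adjusted exact p = 0.797), nor did that from the 4.05% of brain-only sites (adjusted exact p = 0.797). With only borders of p up to 0.01 the direction against bordered sites turned, at 8.45% and 4.39% (adjusted exact p = 0.449), and the difference from the 1.94% of eWAT-only sites passed (adjusted exact p = 1.56e-14). Of all eWAT peaks, 2.44% held an SP/KLF box, 2.99% the TEAD motif and 1.14% the glucocorticoid response element. The TEAD motif (ACATTCC), of the Hippo pathway factors, lay at 13 border-free sites (4.59%), above the 1.63% of brain-only sites (adjusted exact p = 0.00622). The glucocorticoid response element lay at 4 (1.41%), above the 0.0769% of brain-only sites (adjusted exact p = 0.00172). Among peaks above the median score of their lists neither call remained: the TEAD motif was at 4.84% and 1.56% (adjusted exact p = 0.112) and the glucocorticoid element at 1 border-free site (0.806%) and 0.169% (adjusted exact p = 0.577). In the full lists, neither differed past the threshold from bordered shared or eWAT-only sites, where the TEAD motif stood at 2.36% and 3.32% and the glucocorticoid element at 1.18% and 1.13%. One of the 4 sites with that element, named after it was seen, stood 1119 bp from Mt2, a metallothionein gene. A match says only that these letters are in the window.

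The GC content of border-free shared sites lay between those of bordered shared and eWAT-only sites. The window within 50 bp of the centre had a mean GC content of 52.7% ± 6.64 at border-free shared sites, against 56.3% ± 8.18 at bordered shared sites, 48.1% ± 7.03 at eWAT-only and 53.5% ± 10.5 at brain-only sites (SD over 283, 423, 6030 and 6506 sites). By a permutation test with 100000 resamples, two-sided, the difference of -3.63 points from bordered shared sites and that of 4.61 points from eWAT-only sites passed (adjusted permutation p = 7.91e-05 for both; both raw p-values were 1e-05, the smallest that the resamples can give). The difference of -0.782 points from brain-only sites did not (adjusted permutation p = 0.491, interval -1.60 to 0.0325), and its sign turned among sites over 1 kb from every start, where border-free sites were 1.84 points higher (adjusted permutation p = 0.00602). With only borders of p up to 0.01, the difference from bordered shared sites was 1.54 points (adjusted permutation p = 0.184). CpG dinucleotides averaged 1.76 per window at border-free and 4.07 at bordered shared sites.

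By the rule no border lay within 100 bp of these centres, and the distance beyond is given as a description. The nearest liver border was a median of 2837 bp away (105 to 86619). At eWAT-only and brain-only sites, which also have none within 100 bp by definition, the medians were 3762.5 and 2769.5 bp. There was a border within 200 bp of 28 border-free sites, within 1 kb of 75 and within 10 kb of 228. Between 100 and 200 bp there were 0.145 borders per border-free shared site, against 0.426 per bordered shared site, 0.0688 per eWAT-only and 0.161 per brain-only site. At positions 10 kb to either side, a border lay within 100 bp of the shifted centre at 6 and 5 of the 283 sites, and 20 kb to either side at 12 and 5. A border lay within 100 bp of the brain peak's centre at 12 sites. The border-free sites closest to the limit were those nearest Ttc17 (105 bp), Abi1 and Gm11735 (both 107 bp), Ier3 (108 bp) and Klf9 (109 bp). The bordered sites closest to it were those nearest Tkt (98 bp), Mcmbp (97 bp), Neurl1a and Phf15 (both 93 bp) and Xdh (91 bp). The eWAT scores of these 5 border-free sites ran from 19.2 to 67.9 and those of the 5 bordered ones from 15.2 to 68.9.

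**Figure D5:**
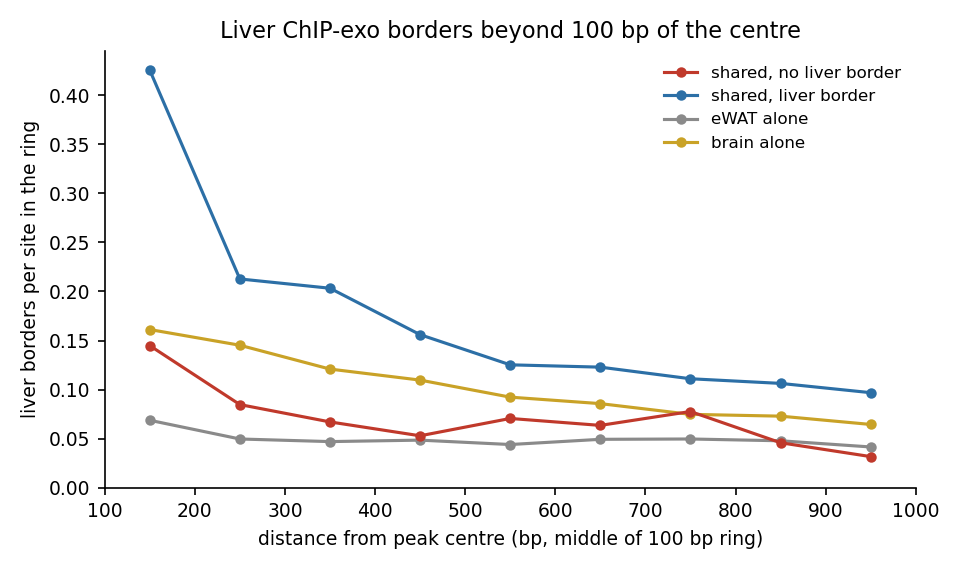
Liver ChIP-exo borders per site (y axis) in 100 bp rings from 100 to 1000 bp of the peak centre (x axis, middle of the ring), for border-free shared, bordered shared, eWAT-only and brain-only sites. In the first ring border-free sites have 0.145 and bordered ones 0.426 borders per site; the ring inside 100 bp is set by the rule for each kind of site and is not drawn.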

How the data were processed

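Chromatin was fixed with formaldehyde, sheared by sonication and immunoprecipitated, and ChIP-exo added exonuclease digestion on the beads, per the labels' protocols. Per the submitters' processing notes, the build was mm9 and the tools were Bowtie 0.12.8 (ChIP-seq), Bowtie 1.1.1 (ChIP-exo) and HOMER, with roles not stated. How peaks and borders were called, and whether libraries were pooled or inputs used, is not given in the sources used here; another threshold or depth would give longer or shorter lists and move every share. The authors deposited for each peak a score of undefined unit. Per the file headers, each deposited border has a p-value (0.00503 to 0.0500) and a signal on an unstated scale (0.0602 to 343.3).

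Sites were placed by their central base on GENCODE vM1 models (22350 protein-coding genes, 70018 starts). In all, 26 consensus motifs were searched on both strands of the mm9 sequence. Shares were compared by Fisher's exact test and GC content by permutation, with a threshold of 0.05, over disjoint sets of sites; the tests were checked on simulated data (Python 3.11.15, scipy 1.17.1, pysam 0.24.0). Intervals are 95% and cover counting error only.

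Members and gene lists (15 lists, 268 symbols, all matched, 3 by an older symbol) were chosen with earlier results of these data known. Named sites are the 25 best by mean rank, those within 10 kb of a listed gene, those with a RevDR2 and 5 on each side of the 100 bp limit; 5 sites with over 10 peaks within 100 kb were counted, not named. Alternatives were other overlaps, border distances, border and peak subsets, promoter widths and windows.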

Additional observations from a re-analysis of the deposited data

How the results depend on the processing

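Of 92 alternative values, 72 kept their direction and their side of the threshold or stayed within 1.5 times the count. For the motifs that differ, only their count was compared, so the motifs themselves could change. Among peaks above the median score, the half-site and the MEF2 motif differed from eWAT-only sites. As reported, these were the half-site, the RORE and the RevDR2. The number of border-free shared sites was 592 with only borders of p up to 0.01 and 124 with only peaks above the median score of their list. Under the p limit, the promoter difference from bordered shared sites was 9.65 points, the GC difference 1.54 points and the count of motifs that differ 0 (2 as reported), the promoter difference from eWAT-only sites 15.4 points and its motif count 7 (3 as reported). With sites over 1 kb from every start, 1 motif (the E-box) differed from bordered shared sites, and the GC difference from brain-only sites was 1.84 points. Among peaks above the median score, the RORE or RevDR2 difference from eWAT-only sites was 4.09 points, 3 motifs differed from brain-only sites (7 as reported) and the GC difference from them was -3.68 points. With the whole 150 bp searched, 5 motifs differed from eWAT-only sites. Among sites within 1 kb of a start, with 22 border-free sites, the RORE or RevDR2 difference was -0.836 points from eWAT-only, -0.639 from brain-only and -0.781 from bordered shared sites. Small differences that did not pass also turned: that difference from bordered shared sites was -0.0312 points over 1 kb from every start, the promoter difference from eWAT-only sites -0.148 points with a width of 500 bp, and the GC difference from brain-only sites 0.00960 points with a border limit of 200 bp. With only borders above the median signal, added after seeing the data, the GC difference from brain-only sites was -1.62 points and passed. The causes were not tested. Depth is unknown, so sites below a list's threshold could not be told from sites without binding. No paired analysis was possible because each group has 1 deposited list; for the same reason no replicate could be left out.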
